A study of Mus musculus with 10 samples.

Results

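The genes described here are Derl1, Derl2, Sel1l, Syvn1, Herpud1, Edem1, Os9, Hspa5 and Pdia6. They act in ER-associated degradation (ERAD) and in protein folding in the endoplasmic reticulum (ER). The genes were chosen by name, with earlier results of these data known, and Derl2 was listed as the member that holds a minor intron. All 9 were present among the 38803 gene symbols of the files. Total RNA of the dorsal telencephalon, the tissue from which the cerebral cortex forms, had been sequenced from mouse embryos at embryonic day 12. The 5 mutant libraries had the genotype Rnu11Flx/Flx::Emx1-Cre+/- and the 5 control libraries Rnu11WT/Flx::Emx1-cre+/-, all on a C57/Bl6 and 129 SvJ background. Rnu11 encodes the U11 small nuclear RNA of the minor spliceosome, and Emx1-Cre recombines floxed DNA in progenitors of the dorsal telencephalon. Both groups carried Cre and at least 1 floxed copy, so no library with 2 intact and untouched copies was measured. Cells of the tissue in which Emx1 is not active, such as those of vessels, meninges and blood, keep their Rnu11.

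Proteins that fail to fold in the ER are drawn back into the cytosol through a membrane complex, tagged with ubiquitin and destroyed by the proteasome. Sel1l and the ubiquitin ligase Syvn1 (also known as Hrd1) form the core of this complex, Derlins help to move the substrate through the membrane, and lectins such as Os9 and Edem1 select misfolded glycoproteins by their sugars. Chaperones such as Hspa5 (also known as BiP) bind unfolded proteins before that step, and several genes of the pathway are induced by the unfolded protein response, which raises folding and disposal capacity under ER stress. Minor introns are a rare class of introns that the U11 and U12 particles recognise by long, conserved letters at the 5' end and at the branch point. They are spliced by the minor spliceosome alone.

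Derl2 holds a neighbouring pair of introns with such letters. The gene (ENSMUSG00000018442.13) lies on the minus strand of chr11:71007164-71019841 in GRCm38. In the transcript ENSMUST00000143850.7 of GENCODE M21, intron 3 (chr11:71014644-71015726, 1083 bases) and intron 4 (chr11:71013639-71014549, 911 bases) flank exon 4, which has 94 bases. Both could be read, 5' to 3', from an annotated transcript of Derl2 that retains them. They are shown because they are the sequences in this gene on which loss of U11 would bear. Capitals mark the donor letters GTATCCTT at the start and the branch letters CCTTAA near the end.
Derl2 intron 3, first 30 bases: GTATCCTTtattaaatagagtcaacatcaa
Derl2 intron 3, last 40 bases: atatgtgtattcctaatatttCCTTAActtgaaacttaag
Derl2 intron 4, first 30 bases: GTATCCTTcaacaaatagcatacaggaaaa
Derl2 intron 4, last 40 bases: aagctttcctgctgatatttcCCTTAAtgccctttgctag
In both introns the branch letters ended 13 bases before the 3' end. Donor letters GTATCCTT or ATATCCTT opened 167 of 36245 annotated introns whose start could be read in this way (0.461%). Together with CCTTAA in the last 40 bases they were found in 20 of 16707 introns with both ends readable (0.120%). Both counts include 3 introns of Derl2: the pair, and the longer intron from exon 3 to exon 5 that shares their outer ends. All introns counted were those that another transcript covers, so they are no random sample of all introns. For the 8 other genes 29 of 109 introns could be read at their start, and none of the 29 opened with these letters. An annotated transcript that skips exon 4 and joins exon 3 to exon 5 (ENSMUST00000018586.5) is classed as a target of nonsense-mediated decay. The deposited files give 1 value per gene, so neither retention of these introns nor skipping of exon 4 was measured.

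**Figure D1:**
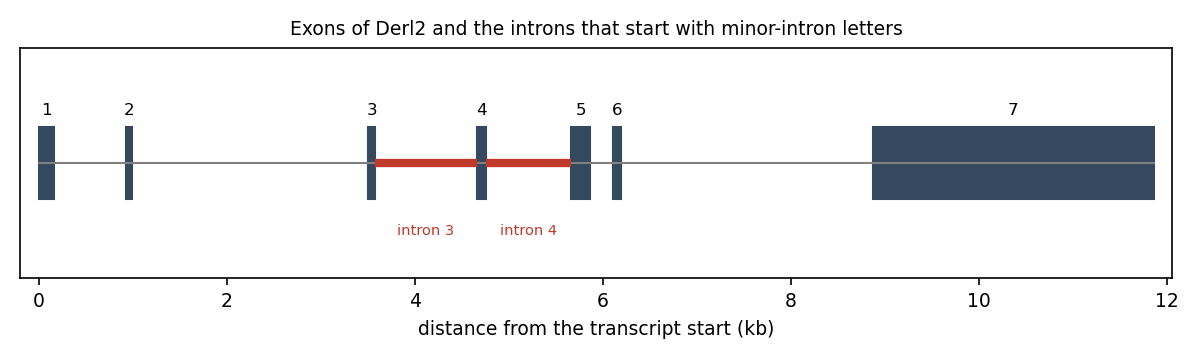
Exons (dark boxes, numbered) and introns (lines) of the Derl2 transcript ENSMUST00000143850.7, plotted by distance from the transcript start in kb. Introns 3 and 4, in red, are those that open with the donor letters of minor introns, and they enclose exon 4.

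A second set of sequences marks which of the genes hold the letters of an ER stress response element in a window of 300 bases that ends shortly after the gene's start (RefSeq, GRCm38.p6). The element ERSE was searched as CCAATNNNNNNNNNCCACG and the element ERSE-II as ATTGGNCCACG, on both strands. Both overlap the CCAAT box, which alone occurred in 37.4% of 32851 promoters. ERSE letters were found in Syvn1, Hspa5 and Pdia6, against 0.119% of all promoters, and ERSE-II letters in Herpud1, against 0.0365%. The matches are in capitals, with 12 flanking bases on either side.
Syvn1, plus strand, chr19:6046520-6046562: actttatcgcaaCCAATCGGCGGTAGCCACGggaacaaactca
Hspa5, plus strand, chr2:34772013-34772055: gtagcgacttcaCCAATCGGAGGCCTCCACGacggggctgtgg
Pdia6, plus strand, chr12:17266479-17266521: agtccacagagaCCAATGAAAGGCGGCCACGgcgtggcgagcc
Herpud1, plus strand, chr8:94386365-94386399: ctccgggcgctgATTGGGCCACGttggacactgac
The promoters of Derl2, Sel1l, Edem1 and Os9 had neither run of letters in this window, which says nothing of the factor elsewhere. The shorter element UPRE, searched as TGACGTG, was found once, in Hspa5, and in 2.01% of all promoters. Derl1 was matched to no promoter.

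Values are FPKM, the fragments of a gene divided by its length and by the size of the library. Depth was estimated roughly, from the value that 1 fragment adds to low genes, at between 9600000 (control 4) and 20600000 fragments (mutant 5). A single fragment over 2000 bases then adds 0.0243 to 0.0521 FPKM, so the lowest of the 9 genes, at 2.68 FPKM, stood far above the level of single fragments. Rnu11, the check of the labels, averaged 892 ± 458 FPKM in mutants and 2283 ± 353 FPKM in controls (SD, n = 5 each), without overlap between the groups (log2 difference -1.50; exact two-sided permutation test, p = 0.00794, the lowest value possible with these group sizes; limma, adjusted p = 0.118). The libraries fell into 2 sets that cross genotype and are told apart by Rnu12, the U12 small nuclear RNA. Mutants 4 and 5 with control 5 lay at 487 to 688 FPKM of Rnu12 (the high Rnu12 set), and mutants 1 to 3 with controls 1 to 4 at 5.91 to 33.8 FPKM (the low Rnu12 set). The log2 difference of Rnu11 was -2.02 in the low set and -0.71 in the high set. In the low set Rnu11 lay at 473 to 712 FPKM in mutants and 1913 to 2817 FPKM in controls. In the high set it was 1344 and 1421 FPKM in the mutants and 2266 FPKM in the single control. The 2 sets therefore differ in Rnu11 of the mutants as well. Markers of the dorsal telencephalon were present in all libraries, with Emx1 at 16.5 to 23.2 FPKM in mutants and 13.6 to 24.7 FPKM in controls. Their 7 genes summed to 157 to 181 FPKM in mutants and 129 to 193 FPKM in controls (exact two-sided permutation test, p = 0.0794). Control 4 had the lowest sum and control 5 the highest. Control 4 stood apart for ventral markers, whose 6 genes summed to 57.9 FPKM there, against 5.89 to 23.3 FPKM in the other 9 libraries. Whether each library is 1 embryo is not stated in the labels. The p-values therefore measure the spread between these libraries, which may be technical in part.

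None of the 9 genes passed the threshold between mutants and controls. With limma on log2(FPKM + 1) and Benjamini-Hochberg adjustment over 13522 tested genes, 0 of 9 were called at an adjusted p of 0.05, where 0.155% of all tested genes were called (0.0887% higher and 0.0666% lower). Their adjusted p ran from 0.461 to 0.93. At an unadjusted p under 0.05 there were 2 of 9, Herpud1 and Pdia6, against 8.76% of all tested genes. Groups overlapped for all 9, whereas they did not overlap for 1.9% of tested genes (1.52% higher and 0.377% lower). The log2 difference was above 0 for 6 of 9 genes and below 0 for 3, where it was above 0 for 75.7% of all tested genes. The median of the 9 was 0.16. The median of all tested genes was itself 0.11, so differences near that value lie at the middle of the transcriptome. The plot of log2 differences shows the 3 genes below that line, Derl2, Derl1 and Sel1l, and the 6 above it. These tissues hold several cell types, and fewer cells of a type cannot be told apart from less RNA per cell.

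**Figure D2:**
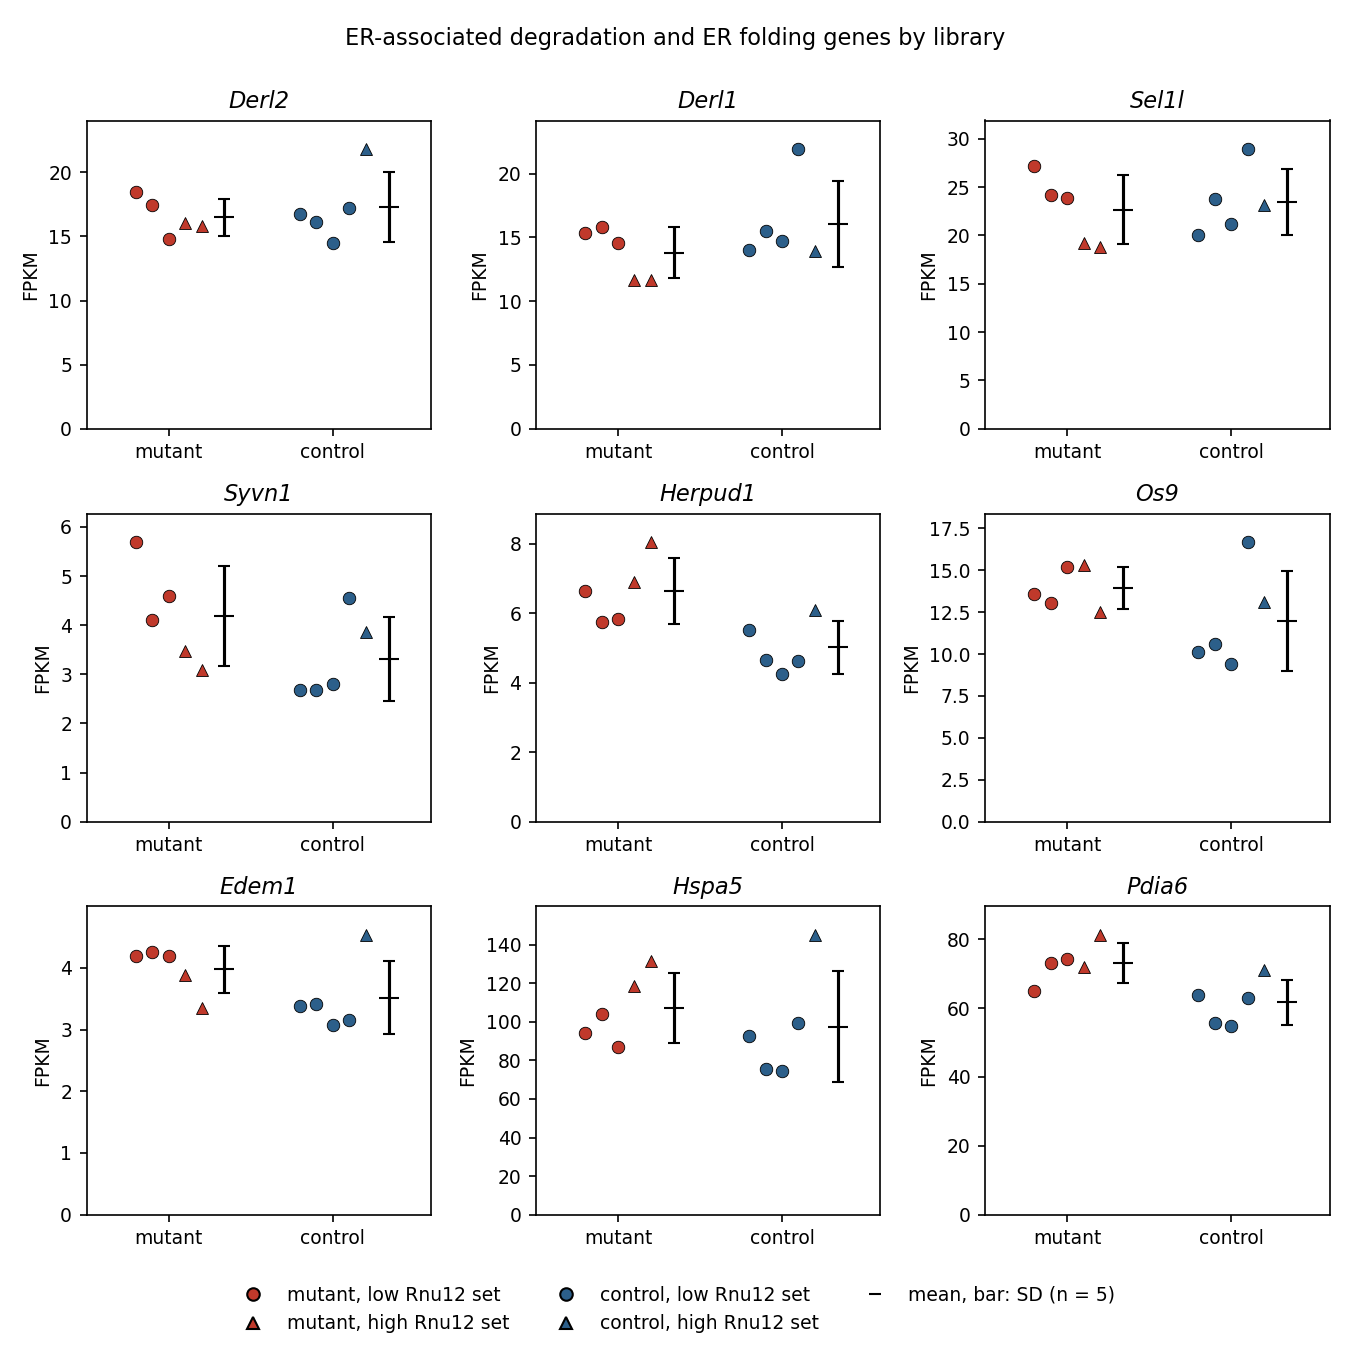
FPKM of the 9 genes in each library, mutants left and controls right, with the mean and SD (n = 5) beside each group; circles are libraries of the low Rnu12 set and triangles those of the high Rnu12 set. The groups overlap for every gene, and Pdia6 shows 4 of 5 mutants above all controls.

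**Figure D3:**
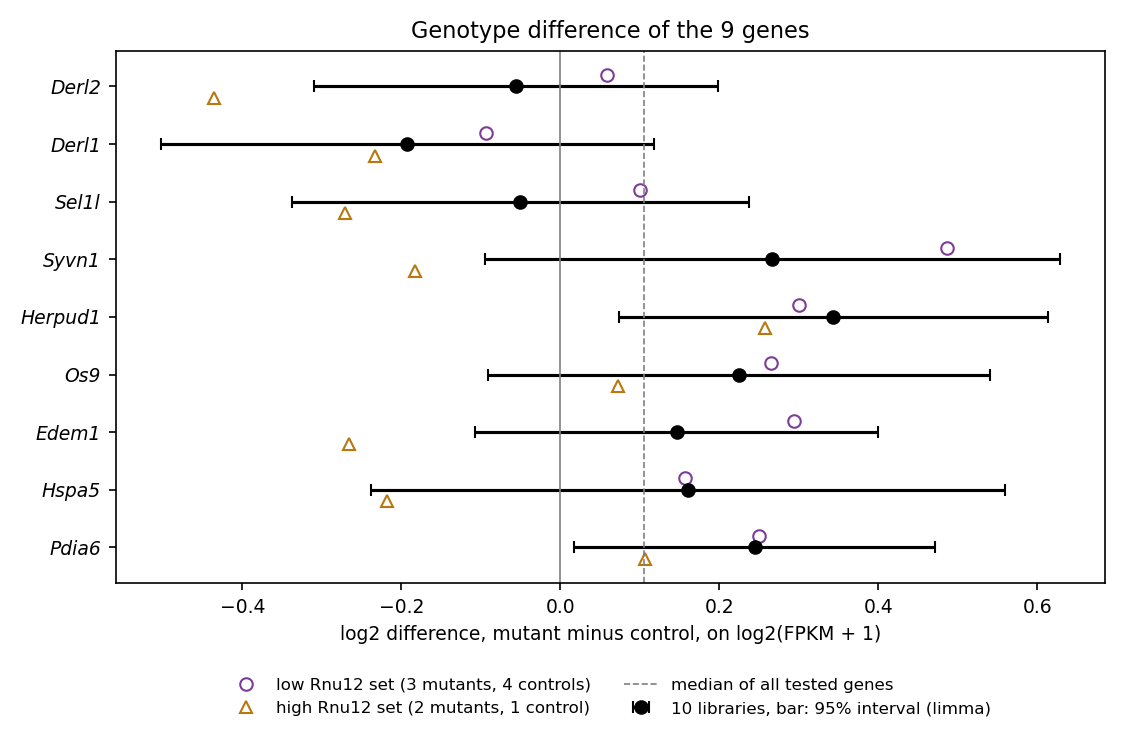
Log2 difference, mutant minus control on log2(FPKM + 1), for each gene, with the 95% interval by limma over 10 libraries (black) and the differences within the low Rnu12 set (circles) and the high Rnu12 set (triangles). The solid line is 0 and the dashed line the median of all tested genes, 0.11; the intervals of Herpud1 and Pdia6 lie above 0 but reach below the dashed line.

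Derl2, the Derlin with the pair of introns, helps to draw misfolded proteins out of the ER, and its level did not pass the test in either direction. It had 18.4, 17.4, 14.8, 16.0 and 15.8 FPKM in mutants 1 to 5, against 16.7, 16.1, 14.5, 17.2 and 21.9 FPKM in controls 1 to 5. Control 5 was the highest library and control 3 the lowest, with all 5 mutants between them. The mean was 16.5 ± 1.43 FPKM in mutants and 17.3 ± 2.75 FPKM in controls (SD, n = 5 each), and the log2 difference was -0.056 (SE 0.12; limma, adjusted p = 0.907). Its 95% interval reached from -0.31 to 0.20, or from 80.7 to 115% of the control level of FPKM + 1. An exact two-sided permutation test gave p = 0.675. The sign of the difference rests on control 5, without which it was 0.028. Within the low Rnu12 set it was 0.059, and in the high set, with its single control, -0.44 (limma, interaction of genotype and set, unadjusted p = 0.0323, adjusted p = 0.548). Rescaled to a common median ratio it was -0.17 (adjusted p = 0.66). The first 231 bases of the gene overlap Mis12 on the opposite strand, at 10.5 FPKM in mutants and 8.61 FPKM in controls, and it is not known here whether reads were counted by strand.

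Derl1 (ENSMUSG00000022365.6, chr15:57869502-57892448), the other Derlin of the set and a channel for membrane proteins bound for degradation, had the lowest log2 difference of the 9. Its values were 15.3, 15.8, 14.6, 11.7 and 11.7 FPKM in mutants 1 to 5, against 14.0, 15.5, 14.8, 22.0 and 13.9 FPKM in controls 1 to 5. Control 4 lay far above all others and mutants 4 and 5 below all controls. The log2 difference was -0.19 (SE 0.14; limma, adjusted p = 0.708), and -0.08 without control 4. After rescaling it was -0.31 (limma, unadjusted p = 0.0351, adjusted p = 0.578). Set against each other within a library, Derl2 over Derl1 gave a ratio of 1.21 ± 0.154 in mutants and 1.11 ± 0.296 in controls (SD, n = 5 each). The ratio did not differ beyond the spread (difference 0.14 on the log2 scale of FPKM + 1, exact two-sided permutation test, p = 0.476). The third family member, Derl3, lay at 0.261 to 0.923 FPKM, below the level tested.

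Sel1l and Syvn1 are the adaptor and the ligase of the core complex, and neither passed the test alone. Sel1l (ENSMUSG00000020964.14, chr12:91806043-91849157) had 27.2, 24.2, 23.9, 19.2 and 18.8 FPKM in mutants 1 to 5, against 20.1, 23.8, 21.2, 29.0 and 23.1 FPKM in controls 1 to 5. Mutants 4 and 5 were the lowest libraries and control 4 the highest. Its log2 difference was -0.05 (SE 0.13; limma, adjusted p = 0.93), with a 95% interval from -0.34 to 0.24, and it turned to 0.10 within the low Rnu12 set. Syvn1 (ENSMUSG00000024807.18, chr19:6046576-6053712) had 5.70, 4.10, 4.59, 3.47 and 3.09 FPKM in mutants 1 to 5, against 2.68, 2.69, 2.79, 4.55 and 3.85 FPKM in controls 1 to 5. Controls 1 to 3 lay below every mutant, and controls 4 and 5 within the mutants' range. The log2 difference was 0.27 (SE 0.17; limma, adjusted p = 0.654).

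The ratio of Sel1l to Syvn1 within a library was lower in mutants by an exact test. On FPKM it was 4.76, 5.91, 5.21, 5.54 and 6.08 in mutants 1 to 5, against 7.51, 8.86, 7.61, 6.37 and 6.01 in controls 1 to 5. Every mutant but mutant 5 lay below all controls, and control 5 fell just below mutant 5. The mean ratio was 5.50 ± 0.533 in mutants and 7.27 ± 1.13 in controls (SD, n = 5 each). On the log2 scale of FPKM + 1 the ratio averaged 2.20 ± 0.0949 in mutants and 2.51 ± 0.161 in controls, a difference of -0.32, and the groups touched without overlap at 2.31. The exact two-sided permutation test gave p = 0.00794, the lowest value possible with 5 libraries a group, and 0.0159 adjusted over the 2 ratios computed here. With no pseudocount, where the groups overlapped, the difference was -0.39 (exact permutation test, p = 0.0159), and after rescaling of the libraries it was -0.34 (exact permutation test, p = 0.0159); both settings were added after seeing the data. With a pseudocount of 0.1 it was -0.38 (exact permutation test, p = 0.0159), and within the low Rnu12 set it was -0.39 (exact permutation test with 35 splits, p = 0.0286). In the high set the log2 ratio was 2.18 and 2.27 in the mutants, against 2.31 in the control. This p was not adjusted over other pairs of genes, and the share of gene pairs that separate in this way was not computed. The 9 genes were also chosen with earlier results of these data known. A ratio shows unequal change without saying which gene changed. The last bases of Syvn1 overlap Mrpl49 on the opposite strand by 91 bases, at 28.2 FPKM in mutants and 27.3 FPKM in controls. Among marker lists of other cell types, the sum of 5 microglial markers lay at 13.8 to 45.6 FPKM in mutants and 8.04 to 21.6 FPKM in controls, and all 5 were above 0 in every library. The sum of 4 neuronal markers lay at 223 to 376 FPKM in mutants and 179 to 305 FPKM in controls. Again none was at 0. Of these, Neurod6 lay at 52.3 to 113 FPKM in mutants and 9.24 to 62.3 FPKM in controls. Stmn2 was also highest in a mutant. Tubb3 and Dcx were highest in a control, with Tubb3 reaching 155 FPKM in mutants and 168 FPKM in controls. The groups overlapped for both sums over the 10 libraries (permutation test, p = 0.0873 and 0.111). They also overlapped for the endothelial, meningeal, choroid plexus and erythroid sums (permutation test, p = 0.421 to 0.889). Within each library set, though, the microglial sum was higher in every mutant than in every control. It was 29.3 to 45.6 FPKM against 11.9 to 21.6 FPKM in the low set. In the high set it was 13.8 and 15.2 FPKM against 8.04 FPKM in the single control. For the neuronal sum this held in the high set but not in the low set. The part of these cell types in the ratio was not tested.

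**Figure D4:**
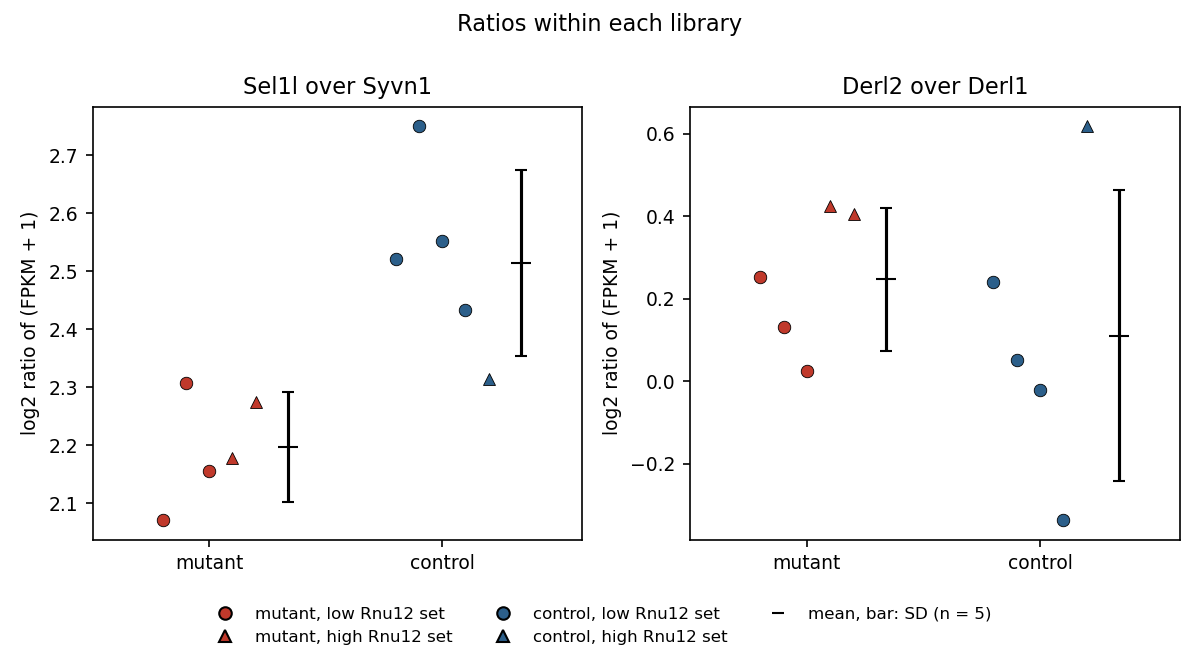
Log2 ratio of (FPKM + 1) within each library for Sel1l over Syvn1 (left) and Derl2 over Derl1 (right), mutants left of controls, with mean and SD (n = 5); triangles are the high Rnu12 set. All 5 mutants lie below the controls for Sel1l over Syvn1 on this scale, though the groups overlap on FPKM without the added 1. For Derl2 over Derl1 the groups overlap.

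Herpud1 (ENSMUSG00000031770.16, chr8:94386438-94395377), a membrane protein that helps to assemble the ligase complex and is induced in ER stress, had the highest log2 difference of the 9. It had 6.64, 5.75, 5.83, 6.90 and 8.06 FPKM in mutants 1 to 5, against 5.52, 4.64, 4.24, 4.62 and 6.08 FPKM in controls 1 to 5. All 5 mutants lay above 4 of the controls, and control 5 stood above mutants 2 and 3. The mean was 6.64 ± 0.94 FPKM in mutants and 5.02 ± 0.757 FPKM in controls (SD, n = 5 each), 132% of control. The log2 difference was 0.34 (SE 0.12; limma, unadjusted p = 0.0167, adjusted p = 0.461), or 0.24 above the median of the transcriptome, and the 95% interval ran from 0.07 to 0.61. Within the low Rnu12 set it was 0.30 and in the high set 0.26, and in each set every mutant lay above every control. An antisense gene, Gm15890, overlaps 535 bases of Herpud1 and lay at 0.0574 FPKM in mutants and 0.0508 FPKM in controls. The pattern of no overlap in both sets held for 5.03% of tested genes.

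Neither lectin passed the test. Os9 (ENSMUSG00000040462.13, chr10:127095650-127121131), which binds trimmed sugars on misfolded glycoproteins, had 13.6, 13.1, 15.2, 15.3 and 12.5 FPKM in mutants 1 to 5, against 10.1, 10.6, 9.41, 16.7 and 13.1 FPKM in controls 1 to 5. Control 4 was again the highest library. The log2 difference was 0.22 (SE 0.15; limma, adjusted p = 0.671), and 0.34 without control 4 (unadjusted p = 0.013, adjusted p = 0.308). Edem1 (ENSMUSG00000030104.9, chr6:108828641-108859356), which acts in trimming and delivery of such glycoproteins, had 4.19, 4.26, 4.19, 3.88 and 3.35 FPKM in mutants 1 to 5, against 3.37, 3.41, 3.08, 3.15 and 4.54 FPKM in controls 1 to 5. Mutants 1 to 4 lay above controls 1 to 4, and control 5 above all libraries. Edem1 differed by 0.15 on the log2 scale (SE 0.12; limma, adjusted p = 0.731). Its difference was 0.29 in the low Rnu12 set and -0.27 in the high set (limma, interaction, unadjusted p = 0.0174, adjusted p = 0.548). That interaction, added after seeing the data, rests on control 5 as the single control of the high set. Higher in the low set and lower in the high set, each without overlap, described 7.15% of tested genes.

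Hspa5 and Pdia6, the folding genes, were the most abundant of the 9. Hspa5 (ENSMUSG00000026864.13, chr2:34771970-34777547), the main ER chaperone of the Hsp70 family, had 94.2, 104, 86.7, 119 and 131 FPKM in mutants 1 to 5, against 92.5, 75.5, 74.7, 99.6 and 145 FPKM in controls 1 to 5. The 3 libraries of the high Rnu12 set were the 3 highest, whatever their genotype. The log2 difference of Hspa5 was 0.16 (SE 0.18; limma, adjusted p = 0.815), 0.31 without control 5 (adjusted p = 0.244) and 0.05 with the library set as a term. Pdia6 (ENSMUSG00000020571.12, chr12:17266545-17284770), a disulfide isomerase, had 64.9, 72.9, 74.3, 71.9 and 81.4 FPKM in mutants 1 to 5, against 63.9, 55.7, 54.8, 62.9 and 71.0 FPKM in controls 1 to 5. Mutants 2 to 5 lay above all controls and mutant 1 above all but control 5. The mean was 73.1 ± 5.86 FPKM in mutants and 61.7 ± 6.64 FPKM in controls (SD, n = 5 each), 119% of control. The log2 difference was 0.24 (SE 0.10; limma, unadjusted p = 0.0366, adjusted p = 0.547), or 0.14 above the median of the transcriptome, and 0.12 after rescaling. As for Herpud1, every mutant lay above every control within each library set, with a log2 difference of 0.25 in the low set and 0.11 in the high set. Atp6v1c2 overlaps 50 bases of Pdia6 on the opposite strand and lay at 0.255 FPKM in mutants and 0.455 FPKM in controls.

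Within the sets, the directions of the 9 genes were set beside those of all tested genes. In the low Rnu12 set 3 of 9 genes, Herpud1, Edem1 and Pdia6, were higher in mutants without overlap, where 16.7% of tested genes were, and 0 of 9 were lower without overlap, where 1.44% were. In the high set both mutants lay below the control for 6 of 9 genes, where 49.9% of tested genes did so, and above it for 2 of 9, against 22.7%. With the library set as a term 0 of 9 passed (limma, lowest adjusted p = 0.27, for Herpud1), against 0.547% of tested genes (0.325% higher and 0.222% lower). In the low set alone 0 of 9 passed (limma, lowest adjusted p = 0.201, for Syvn1), against 0.747% (0.606% higher and 0.141% lower).

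In level per length the order of the 9 genes was the same in both groups except that Os9 stood above Derl1, and Syvn1 above Edem1, in the mutant means. Hspa5 averaged 107 FPKM in mutants and 97.5 FPKM in controls and lay above Pdia6 in all 10 libraries, and Pdia6 lay above Sel1l in all 10. Sel1l exceeded Derl2 in all 10 libraries, though their ranges overlapped among controls. Derl2 stood above Derl1 in 8 of 10 libraries and Derl1 above Os9 in 7 of 10, with overlapping ranges in both groups. Whether the levels of these neighbours differ was not tested. Derl2 stood above Os9 in 9 of 10 libraries. Os9 lay above Herpud1 in every library. Herpud1 lay above Edem1 in every library, with overlapping ranges among controls. Edem1 and Syvn1 were lowest, and their ranges overlapped in both groups. Relative spread was widest for Hspa5 among controls, with a coefficient of variation of 29.5%, and for Syvn1 among mutants, at 24.4%. It was narrowest for Pdia6 in both groups, at 8.02% in mutants and 10.8% in controls.

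Other genes of the pathway gave no call. Of 46 further ERAD genes tested 0 passed (limma), with 3 at an unadjusted p under 0.05, all higher, beside 0.155% and 8.76% of all tested genes. Their median log2 difference was 0.10, beside 0.11 for all tested genes. Of the 46, 33 lay above 0, where 75.7% of all tested genes did, and after rescaling 22. Tmub1, a ubiquitin-like membrane protein of the pathway, averaged 7.94 ± 1.21 FPKM in mutants and 5.81 ± 1.12 FPKM in controls (SD, n = 5 each; log2 difference 0.40, limma, adjusted p = 0.46). Dnajb12, a membrane co-chaperone, averaged 6.27 FPKM in mutants and 5.07 FPKM in controls. Faf2, which recruits the extraction ATPase, averaged 13.0 FPKM in mutants and 10.2 FPKM in controls, and Ube2g2, a ubiquitin-conjugating enzyme of ERAD, 10.9 FPKM in mutants and 9.13 FPKM in controls. These 4 had the smallest p of the list, with adjusted p up to 0.579.

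Of 47 further ER folding and translocation genes 0 passed (limma), with 2 at an unadjusted p under 0.05, both higher, where 8.76% of all tested genes were under 0.05 in either direction. The median log2 difference was 0.12. Of the 47, 43 lay above 0, where 75.7% of all tested genes did, and after rescaling 25. Mesdc2, a chaperone of lipoprotein receptors, had the smallest p. It averaged 17.4 ± 3.19 FPKM in mutants and 12.4 ± 1.67 FPKM in controls (SD, n = 5 each; log2 difference 0.45, limma, adjusted p = 0.357). Emc1, a subunit of the ER membrane complex that inserts proteins, averaged 5.24 FPKM in mutants and 4.03 FPKM in controls. Prkcsh, a subunit of glucosidase II, averaged 17.3 FPKM in mutants and 14.6 FPKM in controls, and Hyou1, a large ER chaperone, 16.6 FPKM in mutants and 13.8 FPKM in controls.

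Of 22 genes of the unfolded protein response 0 passed (limma), with 2 at an unadjusted p under 0.05, both higher, again beside 8.76% of all tested genes. The median log2 difference was 0.10. Of the 22, 16 lay above 0, where 75.7% of all tested genes did, and after rescaling 12. Nfe2l2, a transcription factor of the oxidative stress response that the ER kinase PERK can activate, averaged 12.2 ± 1.35 FPKM in mutants and 9.54 ± 1.5 FPKM in controls (SD, n = 5 each; limma, adjusted p = 0.466). Ddit3, the transcription factor CHOP of prolonged ER stress, averaged 5.50 ± 0.711 FPKM in mutants and 4.15 ± 1.21 FPKM in controls (SD, n = 5 each; limma, adjusted p = 0.566). Xbp1, the transcription factor spliced by the sensor IRE1, averaged 16.5 FPKM in mutants and 13.5 FPKM in controls, and Atf4, the transcription factor of the integrated stress response, 33.7 FPKM in mutants and 29.0 FPKM in controls. For Xbp1 and Atf4 the mutants lay above the controls without overlap in the low Rnu12 set, as for 16.7% of tested genes. In the high set the control stood above both mutants for Atf4 and between them for Xbp1. For Nfe2l2 every mutant lay above every control in each set, as for 5.03% of tested genes. For Ddit3 the groups overlapped in each set. A gene value does not tell spliced from unspliced Xbp1.

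**Figure D5:**
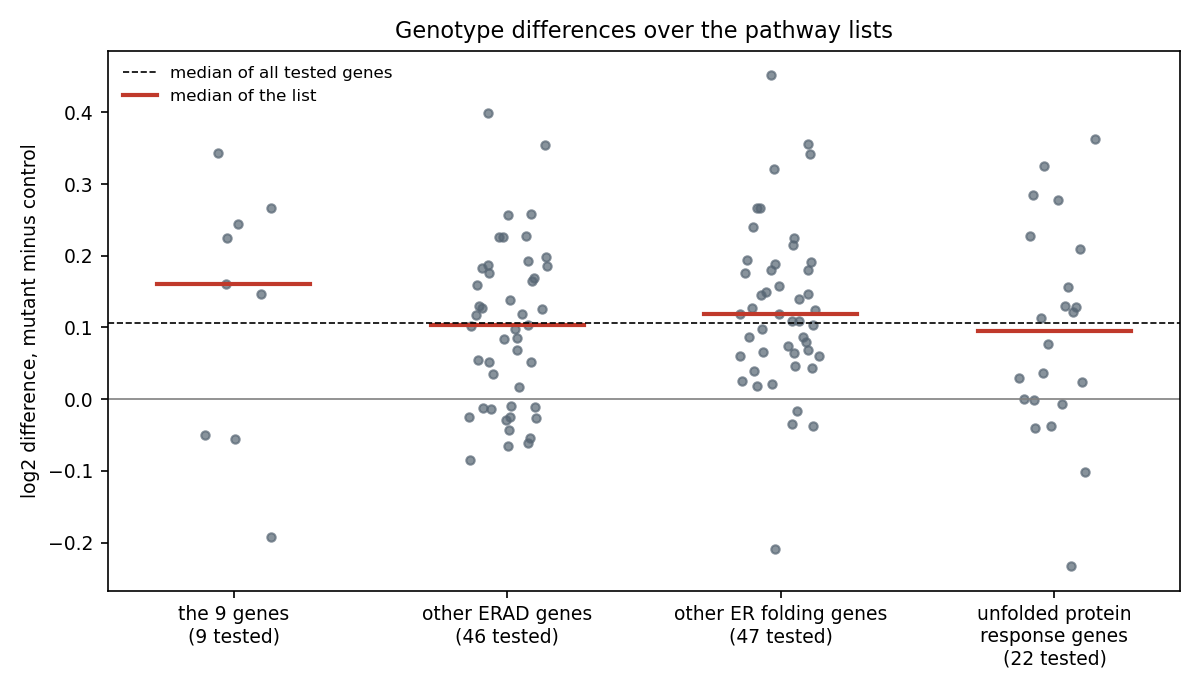
Log2 difference, mutant minus control on log2(FPKM + 1), for each tested gene of the 9, of 46 further ERAD genes, 47 further ER folding genes and 22 genes of the unfolded protein response; red bars are list medians and the dashed line the median of all tested genes, 0.11. The medians of the 3 further lists, 0.10, 0.12 and 0.10, lie beside that line.

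The genes whose profile over the 10 libraries was most like that of Derl2, by Pearson correlation of log2(FPKM + 1) over 11989 genes, were Zmym4 (r = 0.93), Clcn7 (r = 0.91), BC024139 (r = 0.91), Vprbp (r = 0.90) and Stxbp5 (r = 0.89). All 5 were highest in control 5, as Derl2 was. Without control 5 their correlations over 9 libraries ran from 0.71 to 0.89. These values describe profiles over libraries that share genotype and library set, and no p is attached to them.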

How the data were processed

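Trizol was used to extract total RNA, from which a stranded kit with removal of ribosomal RNA gave the libraries, per the labels' protocols. HISAT2 and GRCm38 (mm10) are named in the submitters' processing notes. How genes were quantified, with which annotation and whether by strand, is not stated in the labels. The files the authors deposited, 1 per library, pair 38803 gene symbols with values read here as FPKM. They carry no header, so this unit rests on the values, which are not whole and sum to between 1996700 and 3051430.

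From them, log2(FPKM + 1) was tested with limma 3.58.1 in R 4.3.3 (intensity trend, robust moderation, genotype alone), after a filter that kept 13522 genes at 1 FPKM or more in 5 or more libraries, with Benjamini-Hochberg adjustment over all of these and a threshold of 0.05. The fit was also tested on simulated data. There the noise was drawn independently for each gene, without library sets. Changes were folds of FPKM + 1 and were given only to genes above a low level. The fit recovered 43.3% of 1.5-fold, 77.6% of 2-fold and 100% of 4-fold changes, with 7 false calls among 13522 genes. These shares may not hold for low genes or for libraries that fall into sets. A missing call therefore does not show that a gene was unchanged. Differences on this scale understate changes of low genes. Ratios within libraries were compared by exact permutation over all splits. Depth was estimated from single-transcript genes with over 1500 exonic bases, too roughly for counting intervals. Loci and introns come from GENCODE M21 (GRCm38), promoters from RefSeq (GRCm38.p6), where 8 of 9 genes were matched. The genes named are the 9 members, Rnu11, the 4 with the smallest p in each of 3 lists (none had a call) and the 5 most like Derl2. Other pathway genes, overlapping genes and markers were named after their values were seen. Members and lists were chosen with earlier results of these data known. Alternatives covered the pseudocount, the filter, rescaling, quantile normalization, the library set, a replicate block, the variance model and each library left out. The interaction of genotype and library set, and the ratios with no pseudocount and after rescaling, were added after seeing the data. Python 3.11.15, pandas 2.3.3 and matplotlib 3.10.9 were used.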

Additional observations from a re-analysis of the deposited data

Results flagged for a closer look

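In 22 groups of 5 libraries (9 genes and 2 ratios in each genotype), 2 had a library far from the others, where chance flags about 1 in 20. Derl1 in controls was set apart by control 4, at 22.0 FPKM against 13.9 to 15.5 FPKM in the other controls, a gap of 0.797 of the group's range. Edem1 in controls was set apart by control 5, at 4.54 FPKM against 3.08 to 3.41 FPKM, a gap of 0.773 of the range. Control 4 was also the library with the highest sum of ventral markers, 57.9 FPKM, and control 5 the single control of the high Rnu12 set; their part in these values was not tested.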

How the results depend on the processing

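None of the 9 genes, nor any gene of the 3 further lists, passed the threshold under any of 18 alternatives (limma; lowest adjusted p = 0.119, for Herpud1 without control 5, and 0.0932 among the further lists). Derl1, Syvn1, Herpud1, Os9, Edem1, Hspa5 and Pdia6 kept the sign of their log2 difference under all 18. Derl2 turned to 0.059 in the low Rnu12 set, and ran from -0.11 to 0.028 when 1 library was left out, above 0 only without control 5. Sel1l turned to 0.10 in the low Rnu12 set and ran from -0.12 to 0.026 with 1 library left out, above 0 without control 4, mutant 4 or mutant 5. The cause was not tested. Under the replicate block the Sel1l to Syvn1 ratio kept its difference of -0.32 with an exact p of 0.0625, the smallest that 5 pairs allow; its other 14 alternatives stayed past 0.05. The labels tie the replicate numbers to no shared litter or day, and the deviations of same-numbered libraries correlated at -0.11 to 0.52, over 0.1 in 3 of 5 pairs, so they were not taken as pairs. That 3 of 5 mutants correlated best with their own number is a hint of pairing from the data, not the design. The block gave 14 calls over all genes, against 21 without it. Calls over all genes numbered 35 with quantile normalization (13 higher, 22 lower), 30 after rescaling (11 higher, 19 lower), 74 with the library set as a term, 101 in the low Rnu12 set, 11 without trend and robust moderation, 2 without a filter and 2 to 79 with 1 library left out. Rescaling moved the median of all tested genes to 0.00. The share of counting error in the spread of the 9 genes was not tested.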

Other observations

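Some genes of the pathway lists lay below the level tested, at a mean near or under 1 FPKM. Among the ERAD genes these were Derl3 and Rhbdd1, a rhomboid protease, which averaged 1.02 FPKM in mutants and 0.87 FPKM in controls. Among genes of the unfolded protein response they were Trib3 and Chac1, both known as targets of prolonged stress signalling, and Creb3l1. Trib3 averaged 0.456 FPKM in mutants and 0.476 FPKM in controls. Chac1 averaged 0.229 FPKM in mutants and 0.198 FPKM in controls. Creb3l1, an ER-bound transcription factor of secretory cells, averaged 0.586 FPKM in mutants and 0.52 FPKM in controls, and ranged from 0.143 to 0.964 FPKM over all libraries.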
